A study of Mus musculus with 4 samples.

Results

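The nuclear genome encodes most subunits of the 5 complexes of the mitochondrial respiratory chain, and their transcripts were measured here in mouse T-helper 17 (Th17) cells. Members were the protein-coding nuclear genes whose GENCODE symbol begins with Ndufa, Ndufb, Ndufc, Ndufs or Ndufv (but not Ndufaf), Sdha to Sdhd, Uqcr, Cyc1, Cox4i, Cox5, Cox6, Cox7, Cox8 or Atp5. This rule took 86 of the 50600 genes in the files: 38 of complex I, 4 of complex II, 9 of complex III, 18 of complex IV and 17 of complex V. They lie on 19 chromosomes, with 3 of them, Ndufa1, Ndufb11 and Cox7b, on the X chromosome.

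Th17 cells are CD4 T cells that secrete interleukin 17. The study held 4 RNA sequencing libraries of primary Th17 cells from C57BL/6NJ mice and no second group, so no treatment or genotype could be compared. The labels number them as biological replicates 1 to 4 and give each its own biosample but 1 shared donor label, with age unknown and sex not collected. The cells were differentiated from CD4 T cells per the linked protocol, and names in the headers mark them as sorted at 72 hr. The labels do not say that the replicates are separate animals or cultures, and every p-value here therefore reflects only how much these 4 libraries differ, which may be technical.

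The respiratory chain passes electrons from NADH (complex I) and succinate (complex II) through ubiquinone, complex III and cytochrome c to complex IV, which reduces oxygen to water. Complexes I, III and IV pump protons across the inner mitochondrial membrane, and complex V, the ATP synthase, uses their return to make ATP. T cells raise both glycolysis and mitochondrial respiration when they are activated.

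Total counts ran from 9382661 (replicate 3) to 34542693 (replicate 1), and the members took between 1.13% and 1.18% of them. All 10 T-cell and Th17 markers were detected, from Rora at 40.2 ± 4.93 TPM (SD, n = 4; TPM is the count per base of exon, scaled to a fixed total per library) to Il17f at 11651 ± 878 TPM. Of the markers of B cells (5), myeloid cells (6) and muscle or brown fat (7), 0 reached 1 TPM in every library, and their summed levels stayed at or below 0.818 TPM in each library. Of the 5 testis germ-cell markers, Prm1, Prm2, Tnp1 and Ldhc had 0 counts and Tnp2 had 7.74 ± 4.70 TPM. In bulk RNA, fewer cells of a type and less RNA per cell cannot be told apart.

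Nearly all members were transcribed, most of them at high levels. Of the 86 members, 82 had a count and 81 reached 1 TPM in every library, against 47.6% of all protein-coding genes. The median member had 183 ± 3.39 TPM (SD, n = 4), where the median over the 10367 protein-coding genes detected in the same way was 32.0 TPM. Levels of 100 TPM or more were found in 62 members, and in 19.8% of those detected protein-coding genes. Among the 1000 most abundant protein-coding genes, 44 were members.

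**Figure D1:**
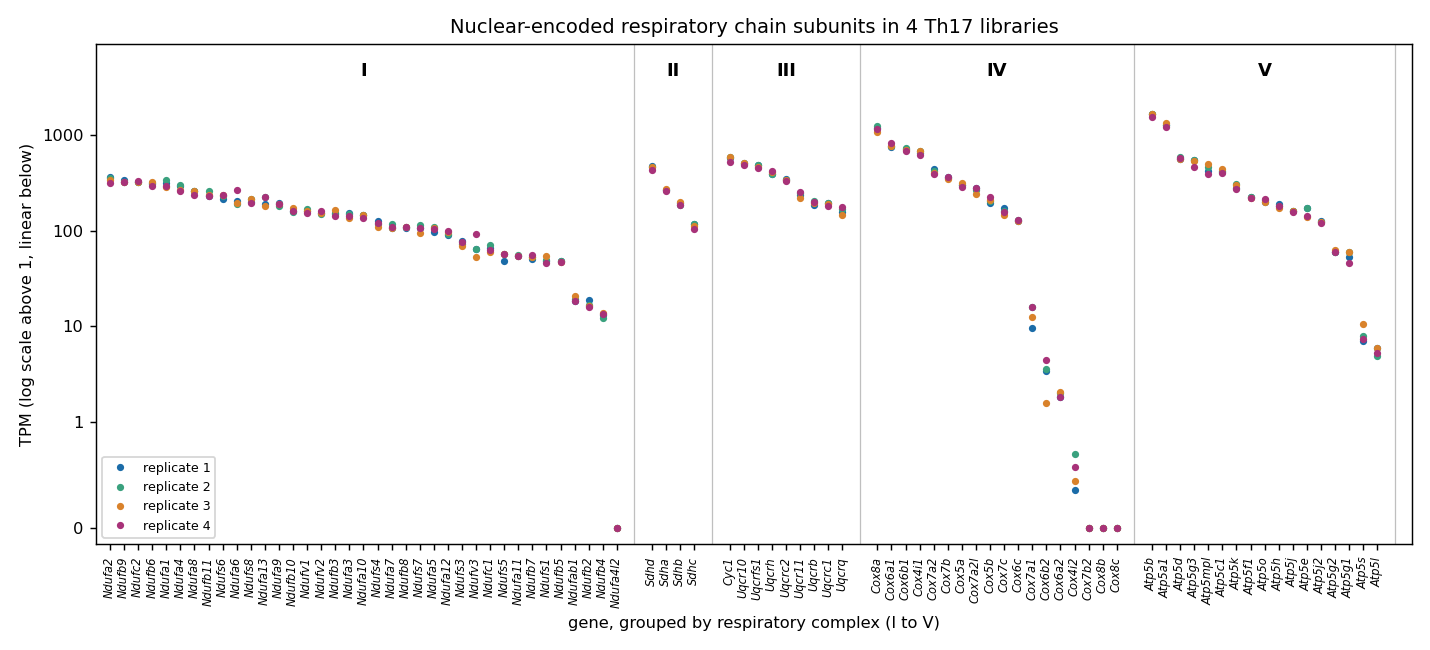
TPM of the members (horizontal axis, sorted by mean within complexes I to V) in each of the 4 libraries (coloured points; vertical axis logarithmic above 1 TPM and linear below). Most members lie between 100 and 1000 TPM with the 4 points close together; the members near or at 0 are isoform genes of complex IV and Ndufa4l2.

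By the exonic lengths in the files, the median member level was lowest for complex I, at 145 ± 4.33 TPM (SD, n = 4), and highest for complex III, at 338 ± 8.20 TPM. Complex II had 229 ± 5.33 TPM, complex V 206 ± 7.01 TPM and complex IV 184 ± 5.98 TPM. The medians of the 4 libraries did not overlap between any of the 5 complexes. The order depended on the gene length used: by the length of the principal coding transcript, complex V had the highest median, at 384 TPM, and complex III had 319 TPM. Complex I had the lowest median under both lengths. It was no longer lowest without the members that share much sequence with other genes (at least 25% of their 50-base windows), where complex I had 149 TPM and complex IV 128 TPM.

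Complex I oxidises NADH. Its 7 nuclear core subunits, which carry the flavin and the iron-sulfur clusters or lie beside them, had a median of 152 ± 2.48 TPM, with Ndufs1 the lowest at 49.4 TPM. The 31 genes counted as accessory had a median of 142 ± 5.75 TPM. Both medians are by exonic length. By the principal transcript the order turned, with Ndufs7 the middle core gene, at 129 TPM, and Ndufb11 the middle accessory gene, at 167 TPM. By exonic length, the highest member of complex I was Ndufa2, an accessory subunit, with 368, 361, 343 and 317 TPM in replicates 1 to 4, followed by Ndufb9 with 339, 328, 321 and 325 TPM. The values of Ndufa2 and Ndufb9 overlapped between libraries. By the principal transcript, Ndufa4 (444 TPM) and Ndufb8 (352 TPM) stood above Ndufa2 (242 TPM). Lowest among the detected were Ndufb4, with 13.3, 12.3, 13.8 and 13.4 TPM, and Ndufb2, with 19.1, 16.7, 16.4 and 16.1 TPM. Every library of Ndufb2 lay above every library of Ndufb4. Of the 50-base windows of the principal transcript of Ndufb4, 37.0% also occur in transcripts of other genes, and reads that map to several places were not counted. Detected members of complex I spanned a 26.4-fold range.

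Complex II, succinate dehydrogenase, is the only respiratory complex with no subunit encoded in mitochondrial DNA. Sdhd, 1 of its membrane anchors, had 478, 469, 466 and 438 TPM. The other anchor, Sdhc, was the lowest of the complex, with 117, 117, 113 and 104 TPM, so the anchors differed 4.11-fold in mean with no overlap. By the exonic lengths, the catalytic pair lay between them. Sdha, the flavoprotein, had 266, 265, 273 and 261 TPM, and Sdhb, the iron-sulfur protein, had 197, 188, 199 and 187 TPM. The order Sdhd, Sdha, Sdhb, Sdhc was the same in each library. By the principal transcript, Sdhb (264 TPM) was above Sdha (248 TPM), with Sdhd still highest and Sdhc lowest.

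Complex III passes electrons from ubiquinol to cytochrome c. By exonic length, Cyc1 (cytochrome c1) was its most abundant transcript, with 574, 586, 585 and 524 TPM, and Uqcr10, a small accessory subunit, had 506, 505, 509 and 492 TPM. Every library of Cyc1 was above every library of Uqcr10. The lowest members were Uqcrq, with 159, 168, 146 and 176 TPM, and the core protein gene Uqcrc1, with 197, 193, 193 and 179.9 TPM. The ranks of Cyc1 and Uqcrc1 depended on the length: by the principal transcript, Cyc1 had 310.3 TPM and Uqcrc1 332 TPM, and Uqcrh was highest, at 637 TPM. Uqcrq was lowest under both lengths. By role and exonic length, the catalytic genes Cyc1 and Uqcrfs1 (the Rieske protein) had a median of 519.5 ± 22.4 TPM, the core proteins 265 ± 7.64 TPM and the 5 accessory subunits 241 ± 14.7 TPM. By the principal transcript, the catalytic genes did not stand apart from the core proteins. Uqcrfs1 had 329 TPM there and Uqcrc2 317 TPM, between Cyc1 (310.3 TPM) and Uqcrc1 (332 TPM). All 9 members were above 100 TPM and spanned only a 3.50-fold range of means.

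Complex IV, cytochrome c oxidase, showed the widest range of levels. Its nuclear subunits surround a catalytic core made in mitochondria, and several exist as isoform genes for different tissues. At the top by exonic length were Cox8a, with 1196, 1240.2, 1085 and 1172 TPM, and Cox6a1, with 753, 778, 763 and 829 TPM. By the principal transcript, Cox4i1 was highest, at 931 TPM, followed by Cox8a at 809.8, Cox5a at 680.4 and Cox6a1 at 668 TPM. Of the 18 genes, 11 had at least 100 TPM, 14 were detected in every library, and Cox7b2, Cox8b and Cox8c had 0 counts. For those 3 genes, the limit that a count of 0 allows (3 counts over the 4 libraries together; counting error only) was 0.189 TPM for Cox7b2, 0.284 TPM for Cox8b and 0.215 TPM for Cox8c. With only members detected in every library, the complex IV median was 284 TPM, 1.54 times that over all 18.

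In every pair of isoform genes of complex IV, 1 gene held nearly all of the counts, apart from the pair of Cox7a2 and Cox7a2l. Cox4i1, the general isoform of subunit 4, had 654, 689, 677 and 619.7 TPM. Cox4i2, known from lung and for its response to low oxygen, had 0.363, 0.701, 0.445 and 0.579 TPM from 12 counts in all. Cox4i1 was 1262-fold higher over the pooled counts (95% exact counting interval 722 to 2442), and the libraries did not overlap.

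Subunits 6a, 7a and 8 have isoforms known from heart and skeletal muscle. For subunit 6a, the muscle gene Cox6a2 had 1.82, 2.03, 2.06 and 1.85 TPM, which put Cox6a1 411-fold higher (299 to 581). For subunit 8, the muscle and brown fat gene Cox8b had 0 counts, so that Cox8a was at least 4187-fold higher against the floor of 3 counts. For subunit 7a, Cox7a2 had 440.4, 427, 405 and 395 TPM. The muscle gene Cox7a1 had 9.62, 16.0, 12.5 and 16.0 TPM, a ratio of 31.4 (27.4 to 36.2). Cox7a1 was thus the muscle isoform with the highest level here, from 54, 62, 19 and 75 counts. Of the muscle and brown fat marker list, 0 of 7 genes reached 1 TPM in every library, 3 had 0 counts, Myh7 among them, and their summed level ran from 0 to 0.818 TPM.

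Isoforms known from testis were low or without counts too. Cox6b1 had 718, 741, 697 and 677 TPM, and its testis isoform Cox6b2 had 3.44, 3.61, 1.58 and 4.43 TPM, a ratio of 197 (164 to 239). Cox6b2 was lowest in replicate 3, the library of least depth, where it had 5 counts. Beside it, the testis marker Tnp2 had 6.08, 5.03, 5.11 and 14.8 TPM, also highest in replicate 4, and the other 4 testis markers had 0 counts. The part of such transcripts in the level of Cox6b2 was not tested. Cox7b had 362, 360.4, 352 and 368 TPM and was at least 1922-fold above Cox7b2. Cox8a was at least 5536-fold above Cox8c, another testis isoform. The remaining pair showed a smaller difference, whose size depended on the gene length used. Cox7a2l, a relative of Cox7a2 that takes part in joining complexes into supercomplexes, had 277, 270.4, 243 and 280.1 TPM. By exonic length, Cox7a2 was 1.54-fold higher (1.50 to 1.58). By the principal transcript, Cox7a2 had 416 TPM and Cox7a2l 199 TPM.

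**Figure D2:**
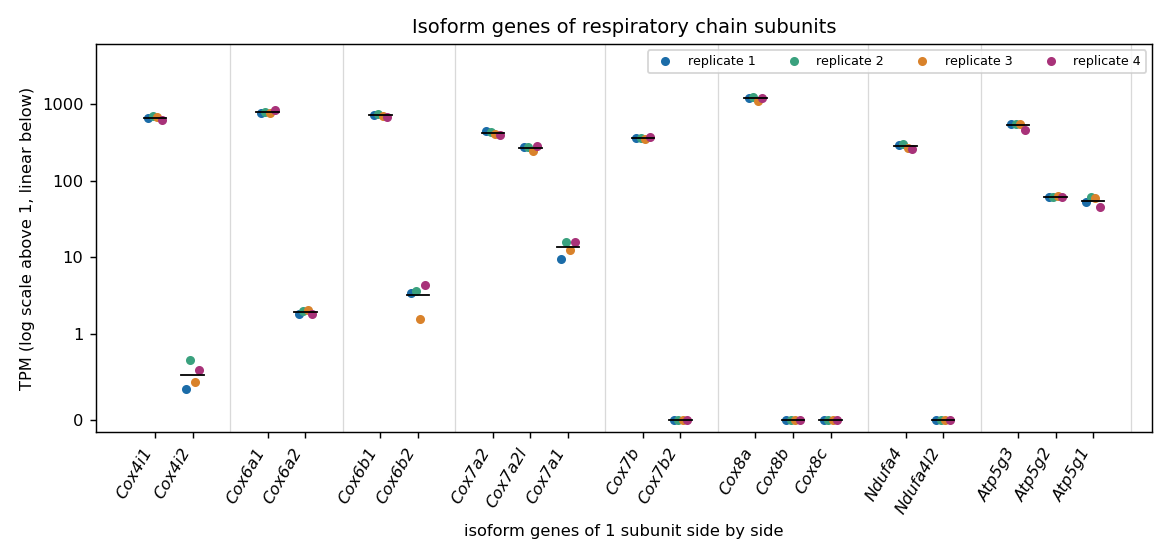
TPM in each library (coloured points) and mean of the 4 (black bars) for isoform genes set side by side; the vertical axis is logarithmic above 1 TPM and linear below. Cox8a is at 1173 TPM beside 0 for Cox8b and Cox8c, Cox7a1 lies near 13.5 TPM, and Atp5g3 stands above Atp5g2 and Atp5g1.

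Ndufa4 carries a complex I symbol, although its protein is known as a component of complex IV. It had 291, 303, 269.5 and 261 TPM. Its relative Ndufa4l2, a gene known to be induced by low oxygen, had 0 counts in all 4 libraries, which made Ndufa4 at least 3033-fold higher.

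On the log2(TPM + 1) scale, the differences within these 9 pairs ran from 0.64 ± 0.10 (Cox7a2 minus Cox7a2l) to 10.20 ± 0.08 (Cox8a minus Cox8b or Cox8c), each positive in 4 of 4 libraries. Over all 12 pairs of isoform genes, the c-ring pairs described below included, each exact sign-flip permutation test (two-sided) gave p = 0.125, which is the smallest that 4 libraries allow. The Benjamini-Hochberg adjusted p was 0.125 for each of the 12.

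Complex V, the ATP synthase, held the most abundant members. The catalytic β subunit gene Atp5b had 1678, 1669.6, 1652 and 1553 TPM, and the α subunit gene Atp5a1 had 1279.7, 1294, 1349 and 1233 TPM. Both were above every other member in mean under either length, and Atp5b was above Atp5a1 in each library. Atp5b ranked 49th and Atp5a1 75th among protein-coding genes. The 5 genes of the F1 head (α, β, γ, δ and ε) had a median of 579 ± 13.4 TPM. The 4 genes of the peripheral stalk had 194 ± 4.93 TPM, from Atp5j at 160.0 TPM to Atp5f1 at 222 TPM. By the principal transcript, Atp5j was the highest of the 4, at 431 TPM, and Atp5h the lowest, at 272 TPM. Among the remaining genes, Atp5mpl, which encodes a small associated protein, had 444 ± 44.8 TPM by exonic length and 184 ± 18.6 TPM by the principal transcript.

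The lowest members of complex V by exonic length were Atp5l, with 5.96, 4.93, 5.99 and 5.22 TPM, and Atp5s, with 7.06, 7.99, 10.6 and 7.38 TPM. Atp5l encodes subunit g, a part of the membrane sector. Atp5s encodes coupling factor B, which is not among the classical subunits. The exonic length of Atp5l was 11.8 times that of its principal transcript, and by the latter it had 45.6 ± 4.40 TPM. Of the 50-base windows of that transcript, 84.8% also occur in transcripts of 14 other genes.

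The c-ring of ATP synthase is built from 1 mature protein that is encoded by 3 genes. Atp5g3 had 553, 549, 539.7 and 460.0 TPM. Atp5g2 had 60.3, 60.7, 63.7 and 60.8 TPM, and Atp5g1 had 53.4, 60.7, 59.4 and 46.0 TPM. Atp5g3 was thus above both others in every library, with a difference on the log2(TPM + 1) scale of -3.07 ± 0.13 for Atp5g2 minus Atp5g3 and of -3.24 ± 0.10 for Atp5g1 minus Atp5g3. Between Atp5g1 and Atp5g2 the difference was -0.17 ± 0.17, about the size of its spread. It was -0.58 by the median length of coding transcripts and -1.29 by the principal transcript. When counts were not scaled by length, it turned to 1.35 in favour of Atp5g1. Of all members, Atp5g2 shared most sequence with other genes: 87.4% of its windows occur in 2 of them, against 11.6% for Atp5g1 and 0% for Atp5g3.

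Such shared sequence and long gene models touched other members as well. At least 25% of the windows were shared in 15 of the 86 members, among them Cox7c (53.0%), Atp5o (50.3%), Atp5h (47.9%), Uqcrb (43.4%) and Ndufs3 (39.7%). Without these 15, the medians were 371 TPM for complex III, 355 TPM for complex V and 128 TPM for complex IV. Ndufb7 had 53.0 TPM by exonic length and 268 ± 11.3 TPM by the length of its principal transcript, and Ndufa11 had 54.9 and 187 ± 3.11 TPM. These names were chosen after their values were seen. Levels of such genes set against other genes are therefore uncertain, while the same gene is scaled alike in every library.

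**Figure D3:**
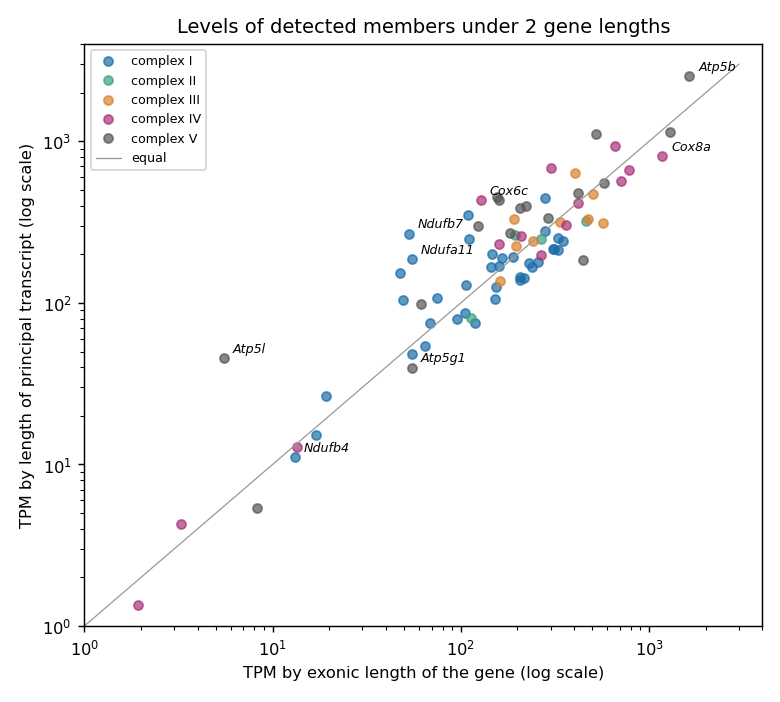
Mean TPM of the detected members by the exonic length in the files (horizontal axis) and by the length of the principal coding transcript (vertical axis), both axes logarithmic, coloured by complex, with the line of equality. Atp5l lies farthest above the line, at 5.53 against 45.6 TPM, and Ndufb7 and Ndufa11 also lie well above it.

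The levels of the members differed little between libraries. Of the 86, 80 passed the filter on low counts. The other 6 were Cox4i2, Cox6a2, Cox7b2, Cox8b, Cox8c and Ndufa4l2. A test of whether a gene varied between libraries more than genes of its abundance (edgeR quasi-dispersion over its trend, adjusted p of 0.05) called 0 of the 80, against 0.00823% of the 12156 genes tested. The smallest adjusted p of a member in that edgeR test was 0.800, and 2 members had an unadjusted p under 0.05, as did 596 of all genes. Without the filter, edgeR called 0 of 82 members against 0.592% of 21299 genes, and the smallest adjusted p of a member was 0.0723. There, 4 members had an unadjusted p under 0.05, as did 1171 of all genes. The dispersion outliers of DESeq2 were 111 of 21299 genes and held 0 of 82 members.

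Of the 80 members, 55 had a quasi-dispersion below the trend, with a median ratio of 0.701 where all genes tested had 0.917. By that median, most of all genes tested lay below the trend too. The median coefficient of variation was 4.84% over members and 7.91% over all genes tested, which were not matched for abundance. The highest and lowest library lay within 1.25-fold for 73 members (91.2%), and for 60.6% of all genes tested. The steadiest were such genes as Atp5j, whose 4 values ran from 159 to 160.4 TPM.

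The members with the most spread by p were Ndufv3, Atp5g1, Ndufa6, Atp5e and Ndufa13. Ndufv3, an accessory subunit at the NADH-oxidising tip of complex I, had 64.2, 65.2, 53.0 and 93.3 TPM, highest in replicate 4 and lowest in replicate 3. It had a 1.76-fold range and an adjusted p of 0.800 by edgeR. Ndufa6, an accessory subunit of complex I, had 206, 193, 197 and 268 TPM and was again highest in replicate 4. Ndufa13, an accessory subunit also known as GRIM-19, had 191, 223, 184 and 228 TPM, high in replicates 2 and 4. Atp5e, the ε subunit of the F1 head, had 171, 172, 140.3 and 142 TPM, high in replicates 1 and 2. Atp5g1, given above, was lowest in replicate 4. For the last 4 genes edgeR gave an adjusted p of 0.991 each.

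**Figure D4:**
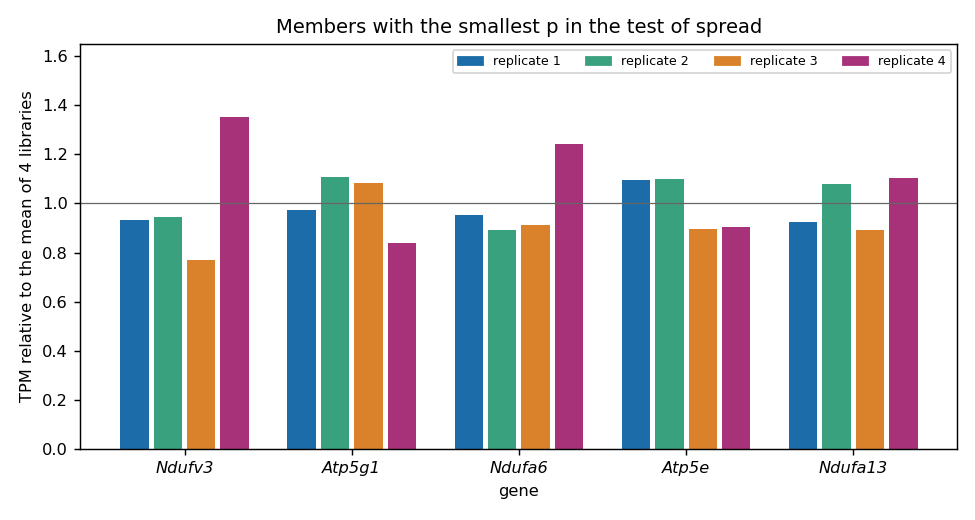
TPM of the 5 members with the smallest p in the test of spread, each divided by its mean over the 4 libraries (bars, 1 per library). Ndufv3 and Ndufa6 are highest in replicate 4, Atp5g1 is lowest there, and none of the 5 passed the threshold.

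Small shifts were shared by many members in replicates 2 and 4, in opposite directions. Since each library is set against the mean of the others, the shifts of a gene sum to 0 over the 4 libraries. Low values in replicate 4 therefore raise the shifts of the others, and part of the opposite direction is built in. On the log2(CPM + 1) scale, the median shift of the 80 members from the mean of the other libraries was -0.05 in replicate 4, where 25 members were higher. It was 0.03 in replicate 2, with 56 higher (8 of 9 in complex III and 11 of 13 in complex IV), 0.02 in replicate 3, with 49 higher, and -0.00 in replicate 1, with 36 higher. The same median over all genes tested was 0.00 in each of replicates 1, 2 and 4 and -0.00 in replicate 3. Of the members, 31.2% were higher in replicate 4 and 70.0% in replicate 2, against 50.5% and 50.6% of all genes tested. In replicates 3 and 1 the shares were 61.2% and 45.0%, against 49.7% and 50.9%. In replicate 4 the shift was -0.10 for complex V, with 2 of 17 members higher, and -0.10 for complex II, with 0 of 4 higher. It was -0.06 for complex III, -0.03 for complex I and -0.01 for complex IV. In replicate 3 the shift was 0.08 for complex V, with 12 of 17 higher, and 0.05 for complex II, with 4 of 4 higher. There, complex I had 0.02, complex III 0.01 and complex IV -0.03, with 4 of 13 higher in complex IV. The lowest of the 4 libraries was replicate 4 for 37 members (46.2%), and for 29.8% of all genes tested. The highest was replicate 2 for 27 members (33.8%), and for 17.0% of all genes tested. With CPM by total count, the shift of replicate 4 was -0.03 and that of replicate 3 was -0.01. The median over all genes tested was then 0.02 in replicate 4 and -0.03 in replicate 3, so that the median of all genes moved too. No test was made of these shifts, since the members were chosen with results known.

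**Figure D5:**
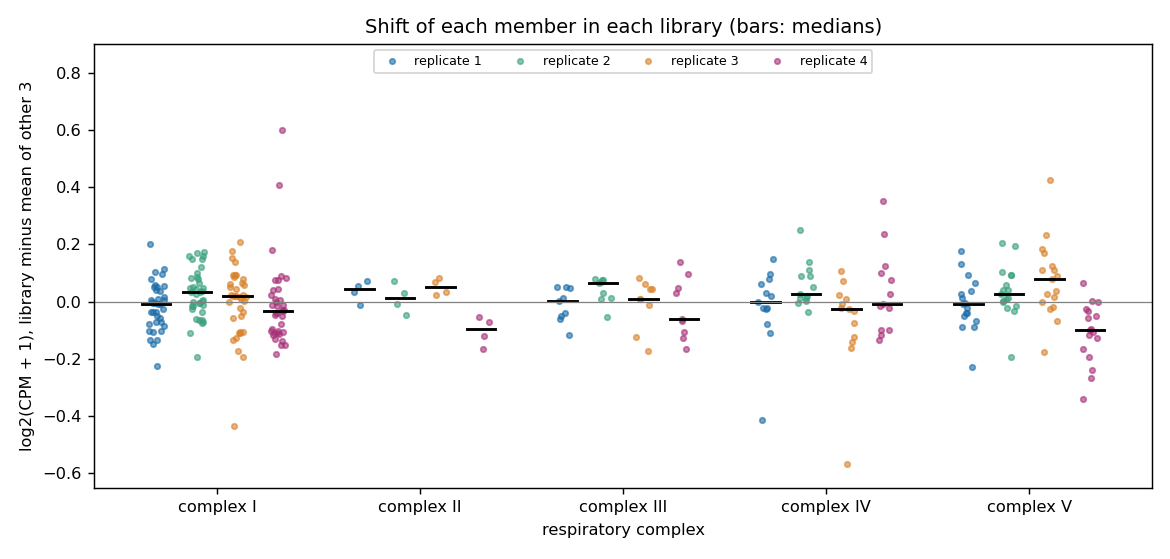
Shift of each member in each library: log2(CPM + 1) in that library minus the mean of the other 3 (vertical axis), by complex (horizontal axis), with 1 point per gene and the median as a black bar. In replicate 4 the medians of complexes II and V are at -0.10, and single genes such as Ndufv3 lie far above their complex.

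The 13 subunits encoded in mitochondrial DNA showed another order of libraries. Of these, 7 were detected, and each of the 7 was highest in replicate 4, as were 36.1% of all genes tested. The part of these 7 in the shift of the nuclear-encoded members in that library was not tested. The cytochrome c oxidase subunit mt-Co1 had a mean of 9079 ± 760.3 TPM, mt-Cytb of complex III 5855 ± 426 TPM, and mt-Nd6, the lowest of the 7, had 59.2 ± 7.46 TPM. All but mt-Nd6 lay above 1000 TPM in mean. Genes listed at 0 counts were mt-Nd3, mt-Nd4l, mt-Co2, mt-Atp6 and mt-Atp8, and mt-Co3 had 2 counts. Of the windows of mt-Nd3, mt-Nd4l, mt-Co2, mt-Co3 and mt-Atp6, between 98.0% and 100% also occur in transcripts of other genes, and reads that fall wholly in such windows were not counted. For mt-Atp8 that share was 0%, and 21.1% of its exon lies under another gene on the same strand. Its count of 0 was not examined further. The share of mitochondrial transcripts in the respiratory chain cannot be read from these counts.

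Factors that assemble the complexes were all detected, at lower median levels than the subunits they serve. The 14 assembly factors of complex I had a median of 34.2 ± 3.01 TPM, from Nubpl, which delivers iron-sulfur clusters, at 6.51 TPM to Ndufaf2 at 71.9 TPM. The 4 of complex II had 24.2 ± 1.38 TPM (Sdhaf3 4.45, Sdhaf2 51.3), and the 6 of complex III had 23.4 ± 1.20 TPM (Lyrm7 1.75, Uqcc2 153). For complex IV, 19 factors had 41.5 ± 3.83 TPM (Cox16 12.6, Coa3 162), and for complex V, 4 factors had 61.5 ± 1.43 TPM (Atpaf1 10.2, Tmem70 107). Each median lay below that of the complex's own subunits, while single factors such as Tmem70 lay above some subunits of their complex.

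Cycs, the somatic cytochrome c that links complexes III and IV, was the highest of the 12 genes for mobile carriers and ubiquinone synthesis, at 101 ± 5.61 TPM. The list had a median of 24.3 ± 0.951 TPM, and the testis cytochrome c gene Cyct had 1 count. Of 13 regulators of mitochondrial biogenesis, 12 were detected, with a median of 32.4 ± 0.913 TPM. The highest was Yy1, a transcription factor, at 142 ± 8.22 TPM, and Pprc1, a coactivator of the PGC-1 family, had 93.4 ± 7.13 TPM. Ppargc1a, which encodes PGC-1α, had 0 counts in 4 libraries, and its relative Ppargc1b had 2.58 ± 0.483 TPM. Nrf1 and Gabpa, transcription factors known to act at many respiratory chain promoters, had 31.3 ± 2.00 and 59.5 ± 2.25 TPM.

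Promoters of the members were searched for letters known to be bound by such factors. RefSeq windows (GRCm38.p6, 250 bases before to 50 after the start) were matched for 67 of the 86 members, and 19 had no window. Searches ran over both strands. The letters GCGCANGCG, after the NRF1 motif, were in 19 of the 67 (28.4%) and in 8.83% of 17491 windows of protein-coding genes. CCGGAAG, after the ETS motif bound by Gabpa, was in 15 (22.4%) against 11.9%. AANATGGC, after the YY1 motif, was in 14 (20.9%) against 6.69%, and GGGCGG, the GC box, in 27 (40.3%) against 46.3%. Both NRF1 and ETS letters were in 6 windows (8.96%), against 1.74%. Windows of members had a median of 19 CpG dinucleotides, and those of all protein-coding genes 13, while GC content was 57.3% and 56.3%. Of the 67 windows, 65 belonged to detected members, while the windows of all protein-coding genes were not limited to detected genes. Whether members differ from other genes of like level or CpG content was not tested. The motifs were chosen with results known, and a match is a description, not evidence of binding.

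These stretches of 4 promoters show windows with and without such letters, chosen after the values were seen. Each is the longest run of the 250 bases before the start that lies in no exon of the files' gene models, read 5′ to 3′ on the gene's strand. Capitals mark NRF1 and ETS letters on either strand. Cox6a1 (chr5:115348982-115349129, minus strand, 781 TPM) holds NRF1 letters at 2 places, at the first of which matches on both strands overlap. The ETS letters of its window lie outside the stretch. Uqcr11 (chr10:80406831-80407071, minus strand, 241 TPM), a complex III subunit, holds ETS letters. Its NRF1 letters lie outside the stretch. Atp5l (chr9:44920752-44920992, minus strand) holds both. Cox8b (chr7:140900447-140900696, minus strand, 0 counts) holds neither, and 1 CpG in 250 bases.
Cox6a1: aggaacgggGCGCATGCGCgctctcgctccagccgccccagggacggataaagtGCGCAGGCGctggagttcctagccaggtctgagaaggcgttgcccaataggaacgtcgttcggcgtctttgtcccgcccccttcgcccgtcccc
Uqcr11: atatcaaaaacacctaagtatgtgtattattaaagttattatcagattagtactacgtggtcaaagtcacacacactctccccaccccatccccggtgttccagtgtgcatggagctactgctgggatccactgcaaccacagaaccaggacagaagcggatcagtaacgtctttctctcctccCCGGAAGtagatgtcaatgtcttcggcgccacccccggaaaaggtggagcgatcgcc
Atp5l: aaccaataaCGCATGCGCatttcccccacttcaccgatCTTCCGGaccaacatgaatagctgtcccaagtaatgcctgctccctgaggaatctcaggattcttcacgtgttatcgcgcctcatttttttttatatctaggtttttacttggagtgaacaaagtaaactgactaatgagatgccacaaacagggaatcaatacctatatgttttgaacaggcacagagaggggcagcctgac
Cox8b: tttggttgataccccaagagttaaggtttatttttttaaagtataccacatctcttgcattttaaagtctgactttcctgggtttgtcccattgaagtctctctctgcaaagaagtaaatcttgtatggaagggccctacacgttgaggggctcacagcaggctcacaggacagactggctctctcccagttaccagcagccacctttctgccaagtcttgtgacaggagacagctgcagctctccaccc

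Of the 67 members with a window, 65 were detected, and all 19 windows with NRF1 letters belonged to detected members. The other 2 genes with a window, Cox8b and Cox7b2, held no NRF1, ETS or YY1 letters, and Cox7b2 held a GC box. With 2 such genes, no comparison between detected and undetected members was made.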

How the data were processed

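RNA sequencing of 4 Th17 libraries of 1 group was analysed. The authors' deposited files hold raw counts of read pairs for each gene and exonic gene lengths. Per the file headers, they were made with featureCounts 1.4.6-p4 on GENCODE mouse release 13 exons, with strand option 2 and both mates aligned, and without reads that map to several places or overlap several genes. The build is mm10 per the labels. STAR appears in the name of the input alignment, without a version. The labels call the assay total RNA-seq, while the linked protocol is named for poly(A) RNA. A single run name stands in all headers, which leaves sequencing batches unknown.

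TPM were computed from counts and exonic length, without correction for fragment length, so that short genes and genes with long rare exons are set too low. Detected means at least 1 TPM in every library. Symbols came from GENCODE release 21, where 50376 identifiers were found. Spread was tested with edgeR 4.0.16 (R 4.3.3; TMM, filterByExpr, intercept alone, F distribution, upper tail, Benjamini-Hochberg over all genes), after testing on simulated data. DESeq2 1.42.0 was an alternative. Pairs of genes were compared by log2(TPM + 1) with exact sign-flip permutation tests (scipy 1.17.1 and numpy 2.4.6 in Python 3.11.15). Ratios carry 95% exact intervals, and a count of 0 allows 3 counts over the group. Both cover counting error only. Shared windows of 50 bases were sought in release 21 transcripts, and promoters came from RefSeq.

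Named with all values were the isoform pairs, the 2 highest and 2 lowest members of each complex, the 5 with the smallest p for spread and those with 1 library far from the rest. Of other lists, the highest, lowest and undetected genes were named. Genes beyond these were picked with their values known. The members and lists were chosen with earlier results of these data known. Values of 1 member are not reported here, and it is left out of the plot of members, while counts and medians include it.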

Additional observations from a re-analysis of the deposited data

Results flagged for a closer look

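In 3 of the 82 members with a count, 1 library lay far from the other 3 by the Dixon gap at its 95% critical value. Chance gives about 1 in 20 of such cases among 4 libraries, and the share here was 3.66%. Ndufs5, an accessory subunit of complex I, was lowest in replicate 1, at 48.7 TPM, where the others had 56.8, 56.7 and 57.7 TPM. Atp5g2, a c-ring gene, was highest in replicate 3, at 63.7 TPM, beside 60.3 to 60.8 TPM in the others. Atp5g3, the most abundant c-ring gene, was lowest in replicate 4, at 460.0 TPM, beside 539.7 to 553 TPM. The 3 lay in 3 different libraries.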

How the results depend on the processing

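The 81 detected members were 81 with any 1 library left out and 78 at 5 TPM, and the count of members called variable was 0 under all 8 alternatives. The direction of 11 of the 12 pairs held under every alternative. The exception was Atp5g1 minus Atp5g2, which turned from -0.17 to 1.35 with no length correction. Sizes could move too: Cox7a2 minus Cox7a2l went from 0.64 to 1.06 by the principal transcript and to 0.36 with no length correction. The medians of the complexes moved with the gene length used, and some moved under other alternatives too. By the median length of coding transcripts they were 127, 209, 310.4, 177 and 314 TPM for complexes I to V, and by the principal transcript 160.1, 256, 319, 246 and 384 TPM. With mitochondrial genes out of the total, complexes I to III had 149, 236 and 349 TPM. With detected members alone, complex IV had 284 TPM, and without members of shared sequence complexes III to V had 371, 128 and 355 TPM, so that complex IV and not complex I (149 TPM) was lowest. The alternatives by principal transcript and shared sequence were chosen after seeing the data. With 1 library left out in turn, medians ran from 143 to 146 TPM for complex I, 227 to 231 for II, 335 to 342 for III, 181 to 186 for IV and 203 to 209 for V. The shift of replicate 4 ran from -0.06 to -0.04 in the same way, and that of replicate 1 from -0.02 to 0.01. By total count or TPM, the shift of replicate 4 was -0.03 in both, and that of replicate 3 turned from 0.02 to -0.01 and -0.00. By TPM, that of replicate 1 turned from -0.00 to 0.01. By total count, the median over all genes tested moved as well, to 0.02 in replicate 4 and -0.03 in replicate 3. No paired analysis was possible because the labels give 1 group only. The depth of replicate 3 limits genes of few counts, such as Cox4i2 with 1 count there.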
